A study of Homo sapiens with 21 samples.

Results

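The inhibitor of DNA binding genes ID1, ID2, ID3 and ID4 were followed in hTERT-HPNE cells, a non-transformed human pancreatic line immortalized with telomerase, after oxidative stress or DNA breakage. Members were the rows of the deposited gene table with these 4 symbols, and all 4 were present among 23368 listed genes. Poly(A)-selected RNA had been sequenced in 21 libraries, 3 from each of 7 groups. Cells were harvested untreated at 0 h, or at 4, 8 or 24 h after either 300 µM hydrogen peroxide (H2O2) or 400 ng/ml neocarzinostatin (NCS), a radiomimetic drug that breaks both DNA strands. All groups grew in medium with serum, EGF and puromycin. Fresh medium was given with the drug and there was no mock-treated group at 4, 8 or 24 h, so against untreated cells the treatment, the medium change and the hours in culture cannot be told apart. H2O2 and NCS at the same hour share the medium change and the time. The study made clonal reporter sublines of this cell line for imaging, and the labels do not say whether the sequenced cells carried a reporter.

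ID proteins have a helix-loop-helix domain for pairing but lack the basic stretch that touches DNA. They pair with E proteins (TCF3, TCF4 and TCF12) and keep them, and the tissue-specific factors that need them, off E-box sequences. The genes are classical direct targets of bone morphogenetic protein (BMP) signalling through SMAD1, SMAD5 and SMAD9, and their proteins are generally tied to proliferation and the undifferentiated state.

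Stretches of RefSeq promoter sequence are shown first for the 3 expressed members, because these genes moved in different ways and the short core of SMAD-binding sites was the one motif searched that all 4 promoters held. Each is the 250 bases before the RefSeq gene start in GRCh38.p14, 5′ to 3′ on the gene's strand. Capitals mark matches on either strand, a reverse match showing its complement, to the SMAD core GTCT, to the box CCAAT bound by the factor NF-Y, to the TATA box letters TATAAA and to CAGCTG, an E-box that helix-loop-helix factors bind. The windows are chr20:31605039-31605288 on the plus strand for ID1, chr2:8681806-8682055 on the plus strand for ID2 and chr1:23559502-23559751 on the minus strand for ID3.
ID1: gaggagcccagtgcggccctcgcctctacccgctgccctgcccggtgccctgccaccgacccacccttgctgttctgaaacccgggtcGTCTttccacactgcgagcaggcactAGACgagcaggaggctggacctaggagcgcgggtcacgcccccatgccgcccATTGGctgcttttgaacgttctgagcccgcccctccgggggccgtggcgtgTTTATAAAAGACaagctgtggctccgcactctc
ID2: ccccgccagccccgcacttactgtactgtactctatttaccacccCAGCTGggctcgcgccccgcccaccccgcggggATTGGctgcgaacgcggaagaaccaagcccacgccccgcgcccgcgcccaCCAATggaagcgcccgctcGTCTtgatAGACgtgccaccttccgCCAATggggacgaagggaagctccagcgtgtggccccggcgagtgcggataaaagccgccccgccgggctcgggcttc
ID3: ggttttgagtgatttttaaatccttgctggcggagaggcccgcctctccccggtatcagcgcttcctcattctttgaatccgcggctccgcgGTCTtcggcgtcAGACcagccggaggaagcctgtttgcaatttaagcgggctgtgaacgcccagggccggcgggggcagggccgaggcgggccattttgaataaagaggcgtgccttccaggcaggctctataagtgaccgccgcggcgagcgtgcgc

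GTCT matched 3 times in the ID1 window, 2 times in ID2, 2 times in ID3 and 1 time in ID4, and it is common: 77.5% of 35116 RefSeq promoter windows of the same length hold it. In ID1 a match to TATAAA began 31 bases before the start, directly beside a GTCT match in reverse, and the same letters were found in ID4 but not in ID2 or ID3 (10.7% of all windows). CCAAT matched 3 times in ID2, 1 time in ID1 and 1 time in ID4 (32.0% of all windows), and CAGCTG matched in ID2 and ID4 (14.0%). None of the 4 windows held GGCGCC, the GC-rich SMAD1/5 element (16.4% of windows), the cAMP response element TGACGTCA (1.65%) or the E-box CACGTG (6.34%). They also held neither the palindromic SMAD-binding element GTCTAGAC (0.182%), nor the EGR1 site GCGTGGGCG (0.720%), nor the p53 core motif (0.325%). These matches describe letters and were not tested as binding sites.

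Expression is given as the authors' rLog value, a log2 count scaled for library size and shrunken towards the gene's mean, so differences between groups are understated, most of all for genes with few reads. In GENCODE release 29 on GRCh38, ID1 lies at chr20:31605283-31606515, ID2 at chr2:8678845-8684453, ID3 at chr1:23557918-23559794 and ID4 at chr6:19837386-19840684. By these positions the ID2 and ID3 windows printed above lie inside the genes. RefSeq and GENCODE thus place these gene starts differently, and the windows are upstream by RefSeq only. The annotation places an antisense gene across ID2 (ID2-AS1) and another across ID4. The strand setting of the counting is not given in the sources used here, so reads of these antisense RNAs in the ID2 value cannot be told apart.

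ID3 was the most abundant member and ID4 was near the bottom of the measured range. Over all libraries the mean rLog level was 12.06 for ID3, 10.45 for ID1, 7.32 for ID2 and -1.08 for ID4, above 94.9%, 81.7%, 50.9% and 14.1% of the 19694 genes with a value other than 0. Per kilobase of annotated exon the mean log2 levels were 11.21 for ID3, 10.14 for ID1, 6.18 for ID2 and -2.31 for ID4. On the same scale the partners TCF3, TCF12 and TCF4 had mean levels of 8.15, 7.78 and 4.82, so ID1 and ID3 lay above all 3 E proteins. That order depends on the length used, which counts every annotated exon of a gene (6080, 9446 and 27828 bases for these partners). Before division by length, ID1 lay below TCF12 (11.02) and TCF3 (10.75). ID4 ranged from -1.09 to -1.05 over the 21 libraries and passed in none of the 13 comparisons of groups and 2 interactions described below, so it is not followed further. Without H2O2 4 h replicate 3 it passed in 3 of the 5 tests that use that group, and without H2O2 8 h replicate 2 in 3 of 5, with no ID4 value in any library above -1.05. The culture held nestin and mesenchymal markers and part of the ductal ones: 8 of 8 and 5 of 10 had a mean of at least 5. In untreated cells VIM was at 17.1 and NES at 12.1. The 5 ductal markers were KRT18 (11.6), KRT8 (7.78), KRT7 (6.74), MUC1 (6.12) and SOX9 (5.93). Among the other ductal markers were KRT19 at 0.604 and EPCAM at -1.76. No acinar, endocrine or endothelial marker reached 5, and 1 of 6 leukocyte markers did (CD68, 9.97). The level of the mesenchymal markers, summed on the linear scale, lay between 20.297 and 20.778 in the 7 groups. That of the ductal markers lay between 11.66 and 12.004. Each sum mostly follows its highest gene, FN1 (20.1 in untreated cells) and KRT18 (11.6), and says little of the others. The part of these markers in the results below was not tested. In such bulk samples, fewer cells expressing a gene and less RNA per cell cannot be told apart.

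Groups were compared with limma in 1 fit of all 21 libraries, and a gene passed at a Benjamini-Hochberg adjusted p under 0.05 over all 19694 genes. Because many genes passed in every comparison, the share of all genes that did is given where each comparison is first used. Every difference of an ID gene was below 1 log2 unit. The 6 comparisons with untreated cells share the same 3 untreated libraries.

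ID1 moved in opposite directions 4 h after the 2 treatments. Its rLog value was 10.37, 10.55 and 10.41 in untreated cells, 10.26, 10.18 and 10.26 at 4 h of H2O2 and 10.70, 10.70 and 10.67 at 4 h of NCS. All H2O2 libraries lay below and all NCS libraries above every untreated one, and the 3 groups did not overlap. Such separation from untreated cells was seen for 49.5% of all genes at 4 h of H2O2 and 30.0% at 4 h of NCS. Between the treatments at 4 h it was seen for 50.1%. The shares at later hours are given with the pairs of members below. ID1 fell by 0.21 ± 0.05 (SE, n = 3 per group) with H2O2, a 1.16-fold lower level (limma, adjusted p = 0.00193). It rose by 0.25 ± 0.05 with NCS, a 1.19-fold higher level (limma, adjusted p = 0.00147). Here and below the SE of a difference is that of the fit, which pools the spread of the 7 groups. It is not the spread of the compared groups alone. Of all genes, 45.9% passed at 4 h of H2O2 and 17.2% at 4 h of NCS, 19.7% being lower with H2O2 and 7.47% higher with NCS. Set directly against each other, H2O2 was 0.45 ± 0.05 below NCS, a 1.37-fold difference (limma, adjusted p = 5.35e-07), in a comparison that 44.4% of all genes passed.

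The order of ID1 under the 2 treatments had turned by 24 h. At 8 h the H2O2 libraries were at 10.67, 10.49 and 10.62 and the NCS libraries at 10.64, 10.57 and 10.52, so the groups overlapped, with a difference of 0.01 (95% confidence interval -0.09 to 0.12) in a comparison that 34.1% of all genes passed. At 24 h the H2O2 libraries were at 10.49, 10.40 and 10.37, within the untreated range or beside it, and the NCS libraries at 10.19, 10.11 and 10.19, below every other group but 4 h of H2O2, whose range they overlapped. ID1 was then 0.28 ± 0.05 below untreated cells with NCS (limma, adjusted p = 0.000158) and 0.02 below them with H2O2 (interval -0.13 to 0.08), and 38.0% and 40.0% of all genes passed these comparisons. H2O2 exceeded NCS by 0.25 ± 0.05 at 24 h (limma, adjusted p = 0.00100), where 21.9% of all genes passed. The change of the H2O2 minus NCS difference was itself tested as an interaction and was 0.47 ± 0.07 from 4 h to 8 h (limma, adjusted p = 4.90e-05) and 0.70 ± 0.07 from 4 h to 24 h (limma, adjusted p = 3.32e-07), tests that 32.7% and 39.4% of all genes passed. Within H2O2, ID1 rose by 0.36 from 4 h to 8 h (limma, adjusted p = 9.78e-06), and within NCS it fell by 0.41 from 8 h to 24 h (limma, adjusted p = 2.91e-06). Of all genes, 45.7% passed the first of these steps and 29.9% the second. From 4 h to 8 h of NCS the ID1 difference was -0.11 (interval -0.21 to -0.01; limma, adjusted p = 0.176), a step that 13.7% of all genes passed.

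ID1 at 8 h against untreated cells was less certain. It was 0.15 ± 0.05 higher with H2O2 (limma, adjusted p = 0.0228) and 0.14 ± 0.05 higher with NCS (limma, adjusted p = 0.0549). The libraries of both treatments overlapped the untreated ones. These comparisons were passed by 37.4% and 23.9% of all genes. The H2O2 call was lost without untreated replicate 1 (adjusted p = 0.122) or 3 (0.0807) and without H2O2 8 h replicate 1 (0.129) or 3 (0.0765), and in a fit of the compared groups only (0.15), while the NCS value passed without untreated replicate 2 (0.00909) or NCS 8 h replicate 3 (0.0448). The libraries at 8 h of H2O2 stood farther from one another over all genes than any others, at a mean distance of 13.1 to 14.9 against 9.28 to 11.0 within the other groups. The fall of ID1 from 8 h to 24 h of H2O2 (0.17, adjusted p = 0.00761, limma, a step that 42.6% of all genes passed) missed the threshold without H2O2 8 h replicate 1 (adjusted p = 0.0520) and in a fit of the compared groups only (0.0538).

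**Figure D1:**
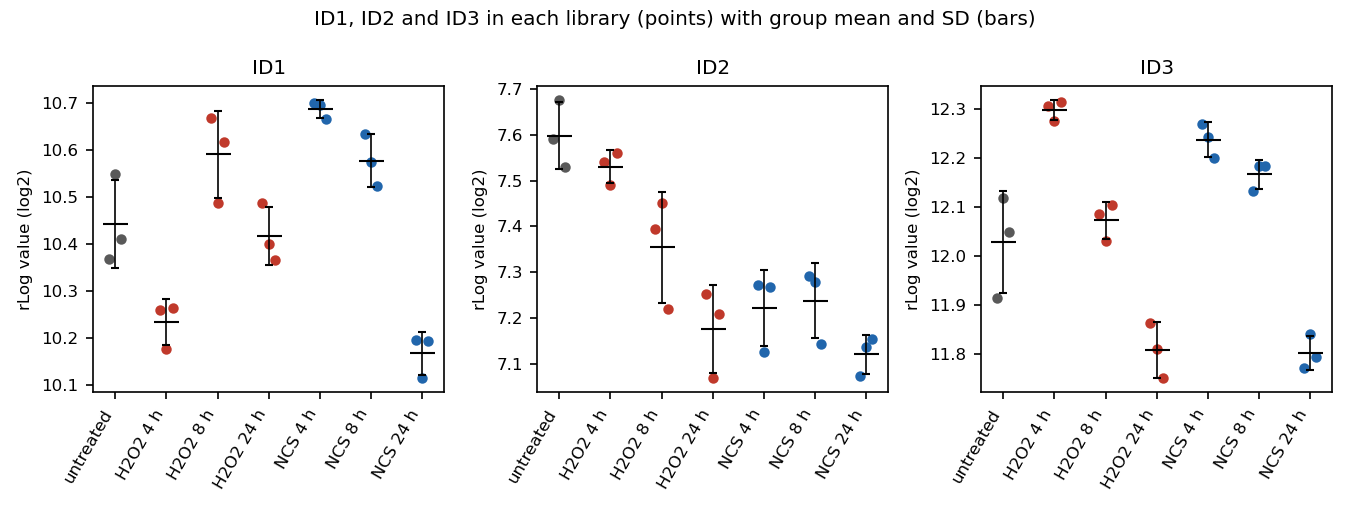
rLog value (log2) of ID1, ID2 and ID3 in each of the 21 libraries, with group means and SD (n = 3) as bars and a separate vertical range for each gene. ID1 is lower at 4 h of H2O2 and higher at 4 h of NCS than in all untreated libraries, and ID3 is higher than untreated at 4 h of both and lower at 24 h of both.

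ID2, an ID protein known for restraining the retinoblastoma protein family as well as E proteins, was lower after both treatments and highest in untreated cells. The rLog value was 7.59, 7.68 and 7.53 in untreated cells and 7.27, 7.13 and 7.27 at 4 h of NCS, with no overlap. At 4 h of H2O2 it was 7.54, 7.49 and 7.56, within or beside the untreated range. ID2 fell by 0.38 ± 0.06 at 4 h of NCS (limma, adjusted p = 0.00032), a 1.30-fold lower level, in a direction that 9.72% of all genes took. At 4 h of H2O2 the difference was -0.07 (interval -0.20 to 0.07), and ID2 was 0.31 ± 0.06 higher with H2O2 than with NCS (limma, adjusted p = 0.000661), where 44.4% of all genes passed.

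The level of ID2 with H2O2 came down later. At 8 h the H2O2 libraries were at 7.39, 7.45 and 7.22, all below the untreated range, and the NCS libraries at 7.29, 7.28 and 7.14. ID2 was 0.24 ± 0.06 lower than untreated with H2O2 (limma, adjusted p = 0.00519) and 0.36 ± 0.06 lower with NCS (limma, adjusted p = 0.000302), and 37.4% and 23.9% of all genes passed these comparisons. The H2O2 call was lost in a fit of the compared groups only (adjusted p = 0.0550). At 24 h the values were 7.25, 7.07 and 7.21 with H2O2 and 7.07, 7.14 and 7.15 with NCS, overlapping each other and all below untreated cells. The falls were 0.42 with H2O2 (limma, adjusted p = 2.42e-05) and 0.48 with NCS (limma, adjusted p = 6.19e-06), 1.34-fold and 1.39-fold, beside 40.0% and 38.0% of all genes that passed. Between treatments ID2 differed by 0.12 at 8 h (interval -0.02 to 0.25) and by 0.06 at 24 h (interval -0.08 to 0.19). The 8 h difference passed without H2O2 8 h replicate 3 (0.18, adjusted p = 0.0357, limma).

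Successive steps of ID2 were small. With H2O2 it fell by 0.18 from 4 h to 8 h (limma, adjusted p = 0.0326) and by 0.18 from 8 h to 24 h (limma, adjusted p = 0.0316), steps that 45.7% and 42.6% of all genes passed. The first step missed the threshold without H2O2 4 h replicate 1 or 3 or H2O2 8 h replicate 3, with adjusted p of 0.0750, 0.0921 and 0.195, and in the last case the difference was -0.11. The second missed it without H2O2 8 h replicate 1 or 2 or H2O2 24 h replicate 2, with adjusted p of 0.101, 0.145 and 0.172. In fits of the compared groups only, neither passed (adjusted p = 0.0970 and 0.137, limma). With NCS the steps were 0.02 (interval -0.12 to 0.15) and -0.12 (interval -0.25 to 0.02), and neither passed.

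ID3 rose early and fell late with both treatments. The untreated libraries were at 11.92, 12.12 and 12.05, the widest group of this gene. At 4 h the H2O2 libraries were at 12.31, 12.28 and 12.31 and the NCS libraries at 12.27, 12.24 and 12.20, all above the untreated range. The rise was 0.27 ± 0.04 with H2O2 (limma, adjusted p = 2.00e-05) and 0.21 ± 0.04 with NCS (limma, adjusted p = 0.000917), 1.21-fold and 1.16-fold, in a direction that 26.2% and 7.47% of all genes took. The difference between the treatments at 4 h was 0.06 (interval -0.02 to 0.14), with no overlap but an adjusted p of 0.245 (limma).

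By 24 h the ID3 values were 11.86, 11.81 and 11.75 with H2O2 and 11.77, 11.84 and 11.80 with NCS, all below the untreated range. ID3 fell against untreated cells by 0.22 ± 0.04 with H2O2 (limma, adjusted p = 0.00017) and by 0.23 ± 0.04 with NCS (limma, adjusted p = 0.000142), and the treatments differed by 0.01 (interval -0.08 to 0.09). At 24 h, 40.0% of all genes passed with H2O2 and 38.0% with NCS, 19.9% and 18.4% being lower. In between, at 8 h, ID3 was at 12.09, 12.03 and 12.10 with H2O2, overlapping untreated cells (difference 0.05, interval -0.04 to 0.13), and at 12.13, 12.19 and 12.18 with NCS, all above them. The NCS value was 0.14 higher than untreated (limma, adjusted p = 0.0153), a call lost without untreated replicate 1 (difference 0.082, adjusted p = 0.108), NCS 8 h replicate 2 (0.0558) or NCS 8 h replicate 3 (0.0551), and in a fit of the compared groups only (0.132). H2O2 was 0.09 below NCS at 8 h, with no overlap but an adjusted p of 0.0843 (limma), in a comparison that 34.1% of all genes passed and in which 40.8% did not overlap. Within H2O2, ID3 fell by 0.23 from 4 h to 8 h (limma, adjusted p = 0.000145) and by 0.27 from 8 h to 24 h (limma, adjusted p = 2.39e-05). Within NCS it was 0.07 lower at 8 h than at 4 h, which did not pass, and fell by 0.36 from 8 h to 24 h (limma, adjusted p = 9.90e-07).

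**Figure D2:**
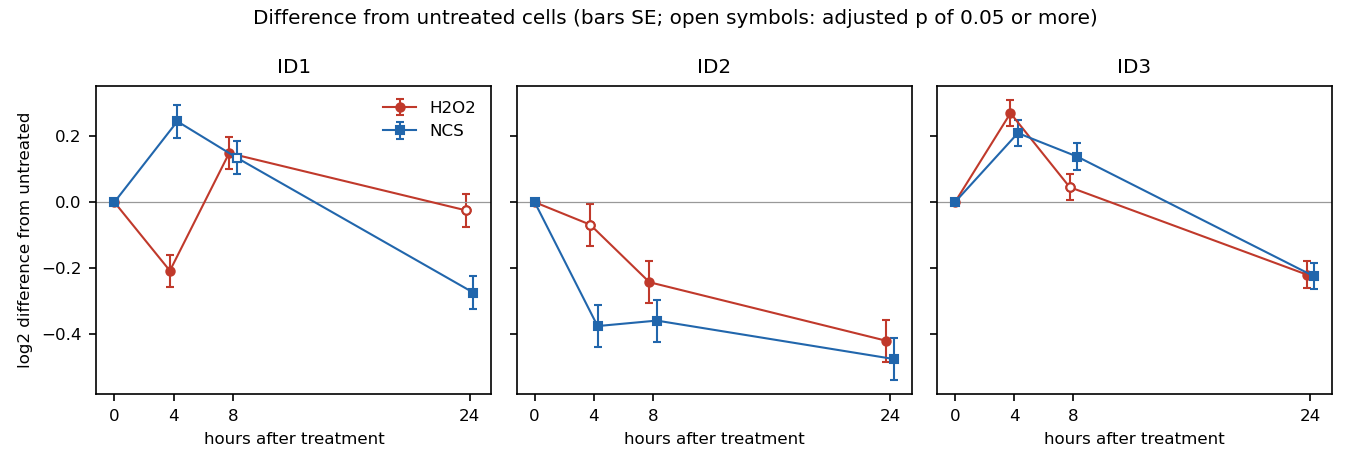
Difference from untreated cells (log2, vertical axis) at 4, 8 and 24 h (horizontal axis, hours) for ID1, ID2 and ID3, with H2O2 in red circles and NCS in blue squares. Bars give the SE of the fit, with the spread pooled over the 7 groups, and open symbols an adjusted p of 0.05 or more. The ID1 curves cross, the ID2 curves fall with H2O2 behind NCS, and the ID3 curves rise at 4 h and lie at -0.22 and -0.23 at 24 h.

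Across the 7 groups, each expressed member had its lowest mean at 24 h of NCS, with 10.17 ± 0.05 for ID1, 7.12 ± 0.04 for ID2 and 11.80 ± 0.03 for ID3 (SD, n = 3). The highest means were at different places: 10.69 ± 0.02 for ID1 at 4 h of NCS, 7.60 ± 0.07 for ID2 in untreated cells and 12.30 ± 0.02 for ID3 at 4 h of H2O2. In the order of ID1 levels, the first 5 groups, from 4 h of NCS through 8 h of H2O2, 8 h of NCS and untreated cells to 24 h of H2O2, each overlapped the next, and a gap lay only between 24 h of H2O2 and 4 h of H2O2. For ID2 the only gap was between 4 h of H2O2, next to untreated cells, and 8 h of H2O2. For ID3, neighbours overlapped between 8 h of H2O2 and untreated cells and between the 24 h groups, and every other neighbouring pair was separate.

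A difference between members within a library cancels a shift that both genes share. ID4 hardly varied, so pairs with it restate the other member and are left out here. ID1 minus ID3 was -1.59 ± 0.05 (SD, n = 3) in untreated cells, -2.07 ± 0.03 at 4 h of H2O2 and -1.55 ± 0.02 at 4 h of NCS. The H2O2 libraries lay apart from both other groups, by 0.48 from untreated cells and by 0.52 from NCS, and the NCS libraries overlapped the untreated ones. At 24 h ID1 minus ID3 was -1.39 ± 0.02 with H2O2 and -1.64 ± 0.08 with NCS, and the former lay above all untreated libraries. ID1 minus ID2 was 2.84 ± 0.06 in untreated cells, 2.70 ± 0.02 at 4 h of H2O2 and 3.47 ± 0.09 at 4 h of NCS, with no overlap among the 3 groups. Over the 3 pairs of expressed members and 9 comparisons, 20 of 27 differences had groups that did not overlap, each with a two-sided exact permutation p of 0.1, the smallest that 3 libraries against 3 can give (0.146 after adjustment over 54 tests, pairs with ID4 included). The 27 are not separate results. Each pair follows from the other pairs, and all comparisons with untreated cells share the same 3 libraries. No share over all pairs of genes was computed. The values of single genes, which are not like those of pairs, did not overlap with untreated cells for 49.5%, 42.0% and 59.7% of all genes at 4, 8 and 24 h of H2O2 and for 30.0%, 33.8% and 44.5% at the same hours of NCS. Between the treatments the shares were 50.1%, 40.8% and 36.5%.

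**Figure D3:**
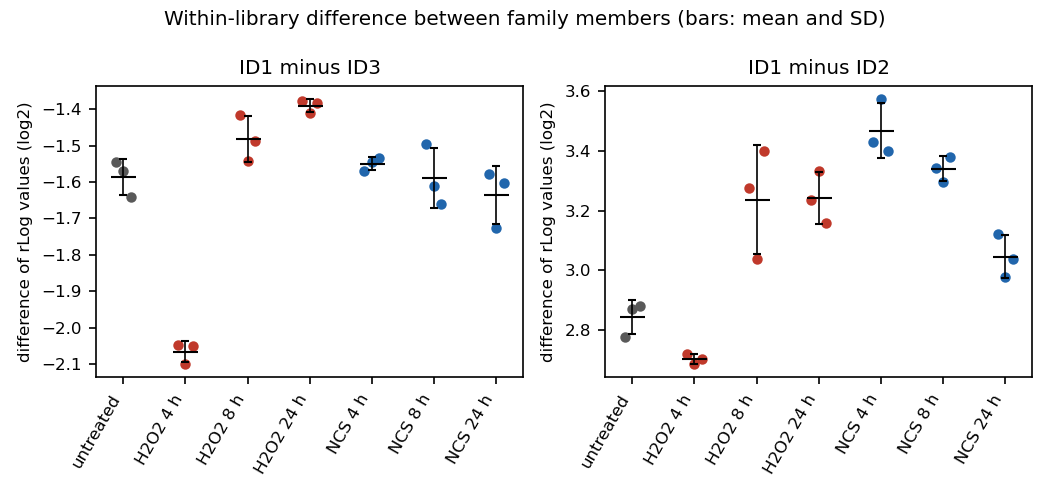
Within-library difference of rLog values (log2), ID1 minus ID3 on the left and ID1 minus ID2 on the right, with points for libraries and bars for group means and SD (n = 3). ID1 minus ID3 is lowest at 4 h of H2O2 (-2.07) and stays near the untreated -1.59 in the NCS groups, and ID1 minus ID2 is highest at 4 h of NCS (3.47).

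The members also had different genes most like them over the 21 libraries, which share 7 group means, each member being set against the 11680 other genes with a mean of at least 5. Pearson correlations are given as a description. ID1 was followed most closely by MRM1 (0.917), DGKD (0.916) and GPAM (0.904), ID2 by GAS2L3 (0.944), AURKA, a mitotic kinase (0.933), and RAD21, a cohesin subunit (0.930), and ID3 by SLC25A22 (0.967), LRRC8A (0.962) and RRP7A (0.951). Such top genes of 11680 are high by selection. Between members the correlation was 0.400 for ID1 and ID3, 0.435 for ID2 and ID3 and -0.04 for ID1 and ID2. ID3 ranked 2358 of 11680 genes in likeness to ID1.

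The genes around the ID proteins were taken from 11 lists of 132 genes, of which 121 had a value other than 0. The 121 include genes below the level of ID4, such as HAMP and BMP7 (both -2.31 in untreated cells). Of these 121, 70 passed at 4 h of H2O2, 69 at 8 h and 70 at 24 h (57.9%, 57.0% and 57.9%), beside 45.9%, 37.4% and 40.0% of all genes. With NCS 50, 52 and 65 passed (41.3%, 43.0% and 53.7%), beside 17.2%, 23.9% and 38.0%, and the lists hold genes picked for known roles, so the 2 sets of shares are not like for like. Of the calls named below, those that failed in any alternative processing are marked.

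The E proteins, the direct partners, were lower wherever they changed, except TCF12 at 24 h of H2O2. At 4 h of H2O2, 2 of 3 passed: TCF4 fell by 0.31, from 9.74 ± 0.05 to 9.43 ± 0.07 (SD, n = 3), and TCF12 fell by 0.20, from 11.05 ± 0.05 to 10.86 ± 0.03, while TCF3 differed by 0.04. At 4 h of NCS none of the 3 passed (TCF3 -0.01, TCF4 -0.01, TCF12 -0.08). The shares of all genes that passed at 4 h were 45.9% with H2O2 and 17.2% with NCS. Directly compared at 4 h, H2O2 was below NCS for TCF4 (-0.30; limma, adjusted p = 4.85e-05) and TCF12 (-0.12; limma, adjusted p = 0.00877). TCF4 stayed below its untreated mean with H2O2, at 9.49 ± 0.08 at 8 h and 9.63 ± 0.04 at 24 h (SD, n = 3). TCF3 fell later with both treatments, by 0.26 at 8 h and 0.31 at 24 h of H2O2 and by 0.33 at 8 h and 0.47 at 24 h of NCS, and at 24 h it was 0.16 higher with H2O2 (limma, adjusted p = 0.00743). The TCF12 difference of 0.09 at 24 h of H2O2 (limma, adjusted p = 0.0474) passed in 5 of 12 alternatives.

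Among 20 tested other helix-loop-helix factors and partners, 6 were higher and 5 lower at 4 h of H2O2. The shares of all genes were 26.2% and 19.7%. At 4 h of NCS 1 was higher and 7 lower, beside 7.47% and 9.72% of all genes. BHLHE40, a stress-responsive repressor of the same superfamily, rose by 1.89 with H2O2 and by 0.68 with NCS. HEY1, a Notch and BMP target, rose by 0.68 with H2O2 and differed by -0.08 with NCS. HAND2 fell by 0.69 and 0.59. ATOH8, itself a BMP target in other cells, fell by 0.48 with H2O2 and 0.61 with NCS.

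Of 9 tested BMP ligands, 6 passed at 4 h of H2O2 and 4 at 4 h of NCS. The shares of all genes were 45.9% and 17.2%. BMP6, which signals through SMAD1, SMAD5 and SMAD9, had its highest mean at 8 h of each treatment. Its rLog level was 11.25 ± 0.10 (SD, n = 3) in untreated cells, 11.48, 11.98 and 11.24 at 4, 8 and 24 h of H2O2 and 11.66, 11.78 and 11.33 at the same hours of NCS. The rise at 8 h was 0.72 with H2O2 (limma, adjusted p = 8.44e-09) and 0.52 with NCS (limma, adjusted p = 7.39e-07), and at 24 h neither difference passed. BMP2 was higher and BMP4 and GDF6 were lower in all 6 comparisons with untreated cells, BMP2 by 0.31 to 0.57 and BMP4 by 0.25 to 0.46. The BMP2 call at 4 h of H2O2 failed in 1 of 12 alternatives.

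Of 10 tested receptors and co-receptors, 2 were higher and 3 lower at 4 h of H2O2, beside 26.2% and 19.7% of all genes. At 4 h of NCS 1 was higher and 2 lower, beside 7.47% and 9.72%. BMPR1A, a type I receptor, fell by 0.29 at 4 h of H2O2, and BMPR1B rose by 0.52 at 8 h of H2O2 from a low level of 5.32 ± 0.06 (SD, n = 3).

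SMAD1 and SMAD5, which carry the BMP signal, did not pass at 4 h with either treatment. SMAD1 differed from untreated cells by -0.08 (interval -0.24 to 0.08) at 4 h of H2O2 and by 0.00 (interval -0.16 to 0.17) at 4 h of NCS. SMAD5 differed by 0.00 (interval -0.07 to 0.08) and 0.01 (interval -0.07 to 0.08). SMAD9 was 0.16 higher at 4 h of H2O2 (adjusted p = 0.0217, limma, lost in 3 of 12 alternatives) and had fallen by 0.42 at 24 h of H2O2 and by 0.40 at 24 h of NCS. SMAD5 fell by 0.19 and SMAD1 by 0.26 at 24 h of NCS (the latter failing in 1 of 12 alternatives) but did not pass at 24 h of H2O2, and both were higher with H2O2 than with NCS at that hour, by 0.35 for SMAD1 (limma, adjusted p = 0.00251) and 0.12 for SMAD5 (limma, adjusted p = 0.0195, lost in 2 of 12). SMAD3, which carries TGF-beta signals, fell in all 6 comparisons, by 0.19 to 0.46. SMAD4, the shared partner, was 0.35 higher with H2O2 than with NCS at 8 h.

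Of 19 tested BMP inhibitors, 8 were higher and 4 lower at 4 h of H2O2, beside 26.2% and 19.7% of all genes, and 6 were higher and 1 lower at 4 h of NCS, beside 7.47% and 9.72%. At 24 h, 3 were higher and 7 lower with H2O2, beside 20.2% and 19.9% of all genes. With NCS 3 were higher and 4 lower, beside 19.6% and 18.4%. SKIL, a SMAD co-repressor, rose by 0.96 at 4 h of H2O2 and 0.27 at 4 h of NCS. FST, the secreted binder follistatin, rose by 0.91 and 0.97. TOB1, which restrains SMAD signalling, rose by 0.39 and 0.85. NOG, the secreted antagonist noggin, fell by 0.64 at 24 h of H2O2 and by 0.53 at 24 h of NCS.

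The inhibitory SMADs were listed with the SMADs and the BMP targets, not among those 19. SMAD7, the inhibitory SMAD that blocks receptors, went from 7.91 ± 0.07 (SD, n = 3) in untreated cells to 8.84 ± 0.05 at 4 h of H2O2 and 8.11 ± 0.03 at 4 h of NCS, rises of 0.93 and 0.20 (limma, adjusted p = 1.14e-11 and 0.0031). It was 0.73 higher with H2O2 than with NCS at 4 h (limma, adjusted p = 3.15e-10). It was also higher in the later groups, by 0.16 to 0.50, and of these calls the one at 8 h of NCS failed in 3 of 12 alternatives. SMAD6, the inhibitory SMAD of the BMP branch, was 0.28 higher at 4 h of H2O2 from a low level of 3.90 (lost in 2 of 11 alternatives).

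Other known BMP targets did not share 1 direction with ID1. ID3 was higher at 4 h of both treatments, by 0.27 and 0.21, and ID2 was lower at 4 h of NCS, by 0.38. Of 17 tested targets, 12 were higher and 3 lower at 4 h of H2O2, where ID1 was lower, beside 26.2% and 19.7% of all genes. The median difference was 0.24 for the targets and 0.00 over all genes. The 17 include genes near the bottom of the measured range, such as SP7 (0.05 in untreated cells and 0.17 at 4 h of H2O2). At 4 h of NCS, where ID1 was higher, 6 targets were higher and 3 lower, beside 7.47% and 9.72% of all genes. The median of the targets was then 0.05. JUNB rose by 1.51 at 4 h of H2O2 and by 0.58 at 4 h of NCS, and KLF10 rose by 0.87 at 4 h of H2O2. CDKN1A, which is also a p53 target, rose by 1.21 and 1.58 at the same hours. BMP signalling was not measured, and its part in the levels of ID1 and of these targets was not tested. This list shares BAMBI with that of the inhibitors and SMAD6, SMAD7 and SMAD9 with that of the SMADs. It also shares HEY1 and ATOH8 with that of the other helix-loop-helix factors and partners. CDKN1A is also among the genes that ID proteins act on. The counts of these lists are therefore not independent.

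Of 8 tested TGF-beta ligands and receptors, 1 was higher and 3 lower at 4 h of H2O2. All genes gave 26.2% and 19.7%. At 4 h of NCS 2 were higher and 2 lower, beside 7.47% and 9.72% of all genes. INHBA, the activin A subunit, rose by 0.67 with each treatment, and TGFB2 fell by 0.24 and 0.37.

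Of 14 transcription factors known to act on ID promoters, 8 were higher and 3 lower with H2O2 than with NCS at 4 h, 10 were higher and 0 lower at 8 h, and 6 were higher and 0 lower at 24 h. Of all genes, 44.4%, 34.1% and 21.9% passed these comparisons. ATF3, a stress-induced factor that acts as a repressor of ID1 in other cells, had an rLog level of 8.21 ± 0.02 (SD, n = 3) in untreated cells. It was at 11.66 ± 0.02, 10.53 ± 0.13 and 9.32 ± 0.08 at 4, 8 and 24 h of H2O2 and at 9.79 ± 0.01, 9.85 ± 0.04 and 8.97 ± 0.08 at the same hours of NCS. ATF3 was 1.87 higher with H2O2 than with NCS at 4 h (limma, adjusted p = 1.10e-14), 0.68 higher at 8 h (limma, adjusted p = 1.94e-08) and 0.35 higher at 24 h (limma, adjusted p = 6.56e-05), and its part in the level of ID1 was not tested. EGR1, an activator of ID1 in other cells, fell by 0.43 at 4 h of H2O2 and by 1.35 at 4 h of NCS. KLF4 rose by 1.31 and 0.39, and NFYA, a subunit of the CCAAT-binding factor, fell by 0.53 with H2O2 and rose by 0.17 with NCS.

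Of 7 genes that set the stability of ID proteins, 4 were lower at 24 h of H2O2 and 4 at 24 h of NCS, with 3 and 2 higher. Among all genes, 19.9% and 18.4% were lower in these comparisons and 20.2% and 19.6% higher. The 7 genes do not all act on ID proteins in the same direction, and the proteins were not measured. The counts therefore say nothing of ID protein stability. USP1, the deubiquitinase that protects ID proteins from the proteasome, was 0.01 from untreated at 4 h of H2O2 and had fallen by 1.30 at 24 h, from 11.15 ± 0.04 to 9.84 ± 0.04 (SD, n = 3). With NCS it fell by 1.27 at 24 h. CDC20, the activator of the anaphase-promoting complex, fell by 2.14 at 24 h of H2O2 and 2.58 at 24 h of NCS.

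Genes known to be held down or raised by ID proteins went both ways, 5 of 13 higher and 5 lower at 24 h of each treatment. The shares of all genes were 20.2% higher and 19.9% lower with H2O2 and 19.6% higher and 18.4% lower with NCS. The list holds genes of both kinds and gives no direction for each, so these counts cannot speak of ID activity. Among cell cycle inhibitors, CDKN1A rose by 1.57 and 1.48 and CDKN2B by 0.81 and 0.70 at 24 h of H2O2 and NCS, while CDKN1B fell by 0.42 and 0.52. CDKN2A, a gene that ID1 represses in fibroblasts, was 0.32 and 0.25 lower at 24 h, the latter lost in 3 of 12 alternatives. THBS1, which ID1 represses, fell by 0.66 at 4 h of H2O2 and differed by 0.02 at 4 h of NCS.

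**Figure D4:**
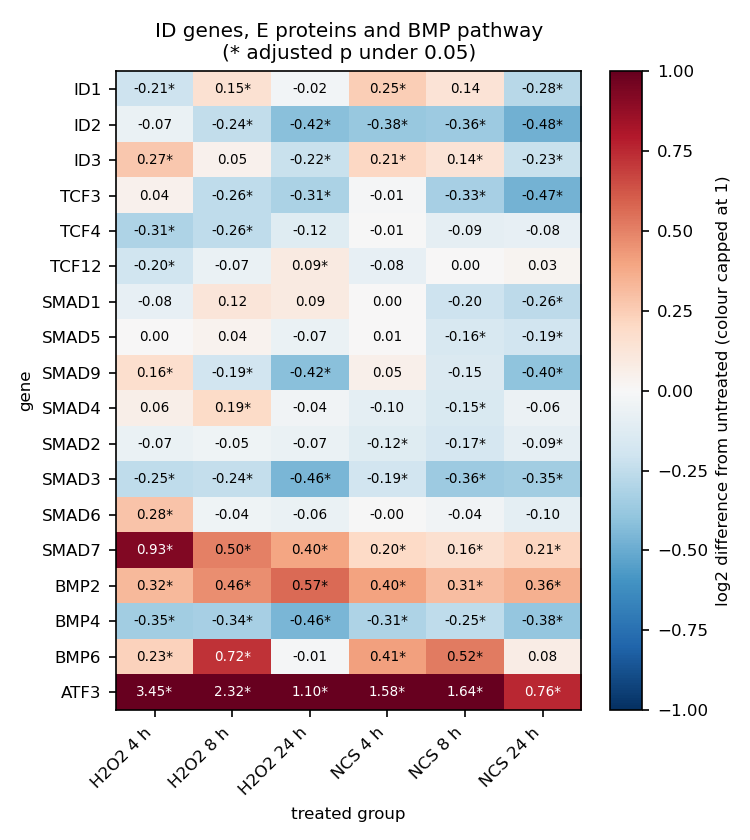
Difference from untreated cells (log2, printed in each cell and coloured up to an absolute value of 1) for the 3 expressed ID genes, the E proteins, the SMADs, 3 BMP ligands and ATF3 in the 6 treated groups, with a star at an adjusted p under 0.05. SMAD7, BMP2 and ATF3 are higher and SMAD3 and BMP4 lower in all 6 groups, while ID1 changes sign between groups.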

How the data were processed

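RNA was sequenced on a NovaSeq from stranded poly(A) libraries of 21 samples. Reads were aligned by the authors with HISAT2 and counted per gene with htseq-count in Galaxy, and the deposited log2 values came from DESeq2's rLog transformation. The submitters' processing notes name hg19, and the annotation, tool versions and counting strand are not given in the sources used here. The values hold no counts, so depth is unknown and no counting interval was computed. Of 23368 genes, 3674 at 0 in every library were left out. Groups came from the labels' treatment and time. The labels call the replicates biological without naming separate cultures, so p-values measure the spread between these samples.

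All groups were fitted together with limma 3.58.1 (R 4.3.3, mean-variance trend), with 13 comparisons of groups and 2 interactions and adjustment over 19694 genes. The fit was tested on simulated data. Differences between members were tested with exact permutation (scipy 1.17.1). Named were the ID genes, E proteins and SMADs, up to 4 genes of the largest difference per list and comparison, and the 3 genes most like each member. The members, gene lists and motifs were chosen with earlier results of these data known. Promoters came from RefSeq (GRCh38.p14) and gene lengths from GENCODE release 29, neither of the authors' build. Alternatives were 2 scalings, a mean of at least 5, fits of the compared groups only, no trend, a replicate block and leaving out each library.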

Additional observations from a re-analysis of the deposited data

Results flagged for a closer look

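The difference between H2O2 and NCS changed over time for 3 members, each by a limma interaction test with adjustment over all genes. For ID1 the H2O2 minus NCS difference rose by 0.47 from 4 h to 8 h (adjusted p = 4.90e-05) and by 0.70 from 4 h to 24 h (adjusted p = 3.32e-07), and both passed in all 18 alternatives run. For ID2 it changed by -0.25 from 4 h to 24 h (adjusted p = 0.0337), which passed in 12 of 18 alternatives and was lost without H2O2 4 h replicate 1 or 3, H2O2 24 h replicate 2, NCS 4 h replicate 2 or NCS 24 h replicate 2 or 3 (-0.20 to -0.25). For ID3 it changed by -0.15 from 4 h to 8 h (adjusted p = 0.0451), which passed in 6 of 18 and was lost without 9 of the 12 libraries it rests on, with values between -0.13 and -0.17. Of all genes, 32.7% passed from 4 h to 8 h and 39.4% from 4 h to 24 h.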

How the results depend on the processing

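Of 45 results of ID1, ID2 and ID3 (3 genes, 13 comparisons and 2 interactions), 29 passed as reported and 28 to 31 passed under another scaling, a mean of at least 5, no mean-variance trend or the replicate block, but 23 in fits of the compared groups only. The calls at 4 h and 24 h against untreated cells and between the treatments kept their direction and stayed past the threshold in every alternative run. The cause of the changes below was not tested. rLog shrinkage, unknown depth and 3 libraries a group limit all values, and ID4 above all.

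With quantile normalization, ID1 against untreated was 0.021 at 24 h of H2O2 and 0.17 at 8 h of NCS (adjusted p = 0.0169), H2O2 against NCS at 8 h was -0.0098 for ID1 and -0.16 for ID3 (adjusted p = 0.00455), and the ID3 interaction from 4 h to 24 h was 0.021. With median alignment, ID3 was -0.020 between treatments at 24 h, its interaction from 4 h to 8 h was -0.13 (adjusted p = 0.0563), and ID4 passed 5 of 15 tests. Scaling moved the median of all genes by less than 0.1. With a mean of at least 5, ID1 at 8 h of NCS (0.14, adjusted p = 0.0167) and ID3 between treatments at 8 h (-0.093, adjusted p = 0.0321) passed. In fits of the compared groups only, 6 calls were lost: at 8 h against untreated, ID1 (0.15, adjusted p = 0.15) and ID2 (-0.24, 0.0550) with H2O2 and ID3 with NCS (0.14, 0.132), and within H2O2, ID2 from 4 h to 8 h (-0.18, 0.0970) and 8 h to 24 h (-0.18, 0.137) and ID1 from 8 h to 24 h (-0.17, 0.0538). Without the trend the ID3 interaction from 4 h to 8 h was lost (-0.15, adjusted p = 0.0590).

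Leaving out 1 library at a time changed the side of the threshold or the sign of these results, given with their ranges. Against untreated cells, ID1 ranged from 0.11 to 0.20 at 8 h and from -0.062 to 0.028 at 24 h of H2O2 and from 0.10 to 0.19 at 8 h of NCS, and ID3 from -0.011 to 0.091 at 8 h of H2O2 and from 0.082 to 0.18 at 8 h of NCS. Between treatments, ID1 ranged from -0.025 to 0.065 and ID2 from 0.069 to 0.18 at 8 h, and ID3 from -0.023 to 0.034 at 24 h. Within treatments, ID1 from 8 h to 24 h of H2O2 ranged from -0.23 to -0.14, ID2 from -0.22 to -0.11 and from -0.25 to -0.12 over the H2O2 steps, and ID2 from -0.031 to 0.064 from 4 h to 8 h of NCS. The interaction of ID2 from 4 h to 24 h ranged from -0.29 to -0.20 and that of ID3 from 4 h to 8 h from -0.17 to -0.13. ID4 passed 0 to 3 tests.

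By the rule used, the replicate numbers were not taken to pair the samples: in 0 of 13 comparisons did all 3 same-numbered pairs of libraries correlate above 0.1 in their deviations from group means (range -0.11 to 0.21), and 38 of 78 matches of a library to its most alike in the other group had its own number, where 26 are due to 3 choices each. Every library matched its own number in 3 comparisons (NCS 24 h against untreated, and H2O2 against NCS at 8 h and 24 h), a hint from the data and not the design. With the replicate block, 28 of the 45 results passed, and the ID3 interaction from 4 h to 8 h was lost (-0.15, adjusted p = 0.0551). The block changed no other call.

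The counts of pathway genes that passed stayed within 1.5 times under both scalings. Of the 3 genes most like each member, 1 was kept for ID1 over the 7 group means, 1 for ID2 by Spearman correlation, and 1 for ID3 by each.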
